A study of Mus musculus with 12 samples.

Results

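The 9 genes described here, Stat2, Irf1, Irf3, Irf7, Irf8, Irf9, Socs1, Socs3 and Usp18, are regulators of interferon signalling. They were chosen by symbol from the 22236 genes of the deposited table, with earlier results of these data known. All 9 were among the 15853 genes with enough counts to be tested. Hippocampal mRNA was sequenced from 12 adult male mice of the inbred strains C57BL/6J (B6) and DBA/2J (D2), aged 3 to 5 months per the labels. Each mouse received in both hippocampi a virus with a short hairpin RNA against the chromatin protein gene Hp1bp3 (AAV9-shRNA-Hp1bp3, KD) or a scrambled hairpin (AAV-scrmb-shRNA, Ctrl), and tissue was taken at least 6 weeks later. There were 3 libraries in each of the 4 groups, and the labels list no other allele or agent. All mice, Ctrl included, had surgery and virus, so no group shows these genes in uninjected tissue. The cells that took up the virus and the promoter of the hairpin are not given in the sources used here. Library numbers follow the order of deposit and pair nothing.

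Interferons are secreted when a cell senses foreign nucleic acid, and they bind receptors whose Janus kinases phosphorylate STAT proteins. Type I interferon brings STAT2 and IRF9 into a complex that binds the interferon-stimulated response element of target promoters, while STAT dimers bind the gamma-activated site. IRF3 and IRF7 switch on interferon genes after sensing, IRF1 and IRF8 carry the response further, and SOCS1, SOCS3 and USP18 end it. In the brain microglia are a main responding cell type, and IRF8 is a factor of microglia and other myeloid cells.

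The libraries held between 18.2 M and 39.4 M expected counts, the read numbers per gene that RSEM estimated. Levels are given as CPM, the counts of a gene per M counts of its library after trimmed mean (TMM) scaling, and they are compared between libraries, not between genes. Neuron markers were high in every library, with sums over 8 genes of 7585 to 10820 CPM. Choroid plexus markers, from tissue next to the hippocampus, varied widely within every group, with sums over 8 genes of 59.7 to 5183 CPM. Hp1bp3 stood at 308, 294 and 310 CPM in B6 Ctrl and at 185, 182 and 259 CPM in B6 KD. In D2 Ctrl it stood at 226, 215 and 234 CPM and in D2 KD at 177, 163 and 229.5 CPM. The library labelled D2 KD 3 thus lay inside the D2 Ctrl range of the targeted gene, and the D2 estimates of all 9 regulators are given with and without it. The log2 fold change of Hp1bp3, KD against Ctrl, was -0.54 ± 0.15 (SE) in B6 (edgeR adjusted p = 0.0760) and -0.25 ± 0.15 in D2 (adjusted p = 1).

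The letters bound by the complexes above were looked for in the promoters of the regulators. RefSeq promoter windows (GRCm38.p6, the B6 reference), from 250 bases before to 50 bases after a start, were given for 8 of the 9 genes, all but Usp18, in 11 windows. The core of the interferon-stimulated response element, GAAANNGAAA, was found on either strand in 2 of the 11 windows, of Stat2 and Socs1. It was found in 3.44% of 32851 promoters of all genes. The gamma-activated site, TTCNNNGAA, was found in 3 of the 11 windows, of Irf1, Irf8 and Socs3, and in 8.30% of all promoters. The windows of Irf3, Irf7 and Irf9 held neither. The stretches with a match are shown to let the letters be compared. Capitals mark the matched bases, and each stretch is written on the strand of its gene.
Stat2, chr10:128270251-128270310, plus strand, match on the other strand: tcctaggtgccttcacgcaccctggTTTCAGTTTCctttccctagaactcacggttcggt
Socs1, chr16:10785579-10785644, minus strand: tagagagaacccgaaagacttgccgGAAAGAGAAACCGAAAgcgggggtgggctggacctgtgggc
Irf1, chr11:53769899-53769957, plus strand: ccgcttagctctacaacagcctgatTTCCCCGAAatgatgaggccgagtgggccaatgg
Irf8, chr8:120736162-120736238, plus strand: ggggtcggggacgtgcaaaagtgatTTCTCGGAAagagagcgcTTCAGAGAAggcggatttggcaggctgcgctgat
Socs3, chr11:117969487-117969545, minus strand: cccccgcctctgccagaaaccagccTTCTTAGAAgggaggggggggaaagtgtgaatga
Counted from the RefSeq start, with -1 as the base before it, the Stat2 match began at -222, the Irf1 match at -90 and the Socs3 match at -154. The RefSeq start used for Socs3, and the stretch shown, lie inside the gene as placed by GENCODE M21 (chr11:117966079-117970047), the source of the loci below. The RefSeq window of Stat2 ends at chr10:128270547, before the gene as placed by GENCODE M21 begins (chr10:128270559). The run of capitals in Socs1 holds 2 matches that overlap, at -83 and -77. Irf8 holds 2 separate matches, at -171 and -153. A match is a run of letters and not a measured binding site, and the sequence of the D2 strain was not used.

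Hp1bp3 KD in B6 mice was accompanied by higher transcript levels of 5 of the 9 regulators, the transcription factors Irf7, Irf9, Irf8 and Stat2 and the inhibitor Usp18. These 5 passed edgeR's quasi-likelihood test at an adjusted p under 0.05, and no regulator fell. Over all genes tested 2.64% were called in B6, and 1.76% were called higher. The fitted rise was 25.7-fold for Irf7, 19.999-fold for Usp18, 3.32-fold for Irf9, 3.06-fold for Irf8 and 2.64-fold for Stat2. The 3 KD libraries lay above the 3 Ctrl libraries for 8 of the 9 genes, all but Irf3, against 13.9% of all genes. The median log2 fold change was 1.61 over the 9 genes and 0.0025 over all genes. Because the 9 genes were chosen with earlier results of these data known, the shares of all genes are given for scale only. The calls rest on few mice and vary with the test, as given after the single genes.

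**Figure D1:**
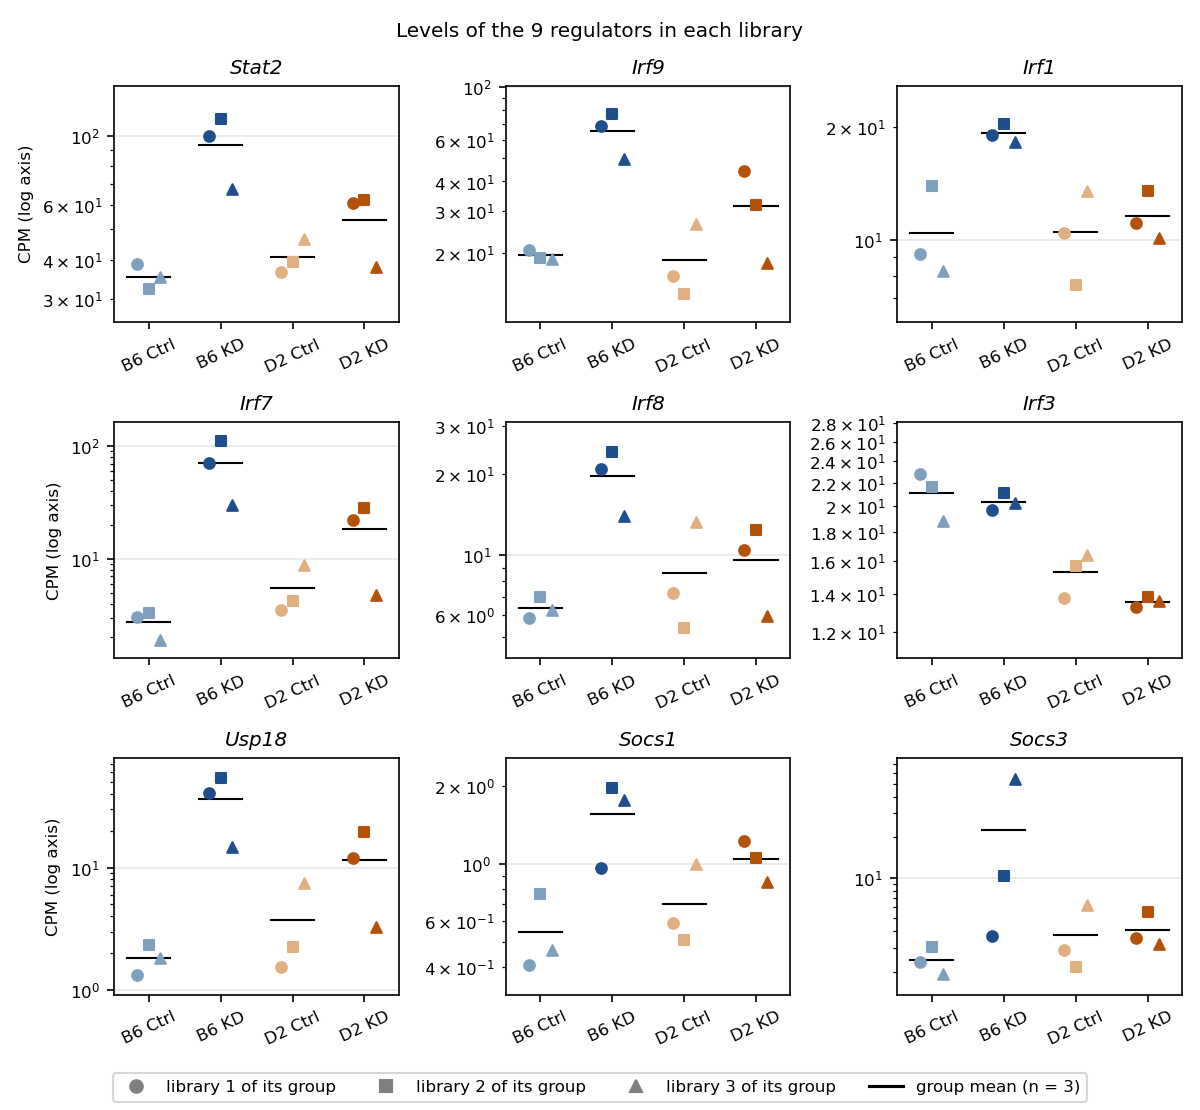
CPM of each of the 9 regulators in every library, on a log axis that differs between panels. Symbols mark the libraries of a group and lines the group means (n = 3). The B6 KD libraries lie above the B6 Ctrl libraries in all panels but Irf3, while D2 KD and D2 Ctrl libraries overlap in every panel.

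Stat2 and Irf9 encode the parts of the type I complex that are particular to it. Stat2 (ENSMUSG00000040033, GRCm38 chr10:128270559-128292849) had 38.6, 32.2 and 35.1 CPM in B6 Ctrl and 99.7, 113 and 67.3 CPM in B6 KD. Every KD library was well above Ctrl, and KD 3 was the lowest of them. This corresponded to a log2 fold change of 1.40 ± 0.22 (SE, edgeR adjusted p = 0.0326). In D2, Stat2 had 36.5, 39.4 and 46.4 CPM in Ctrl and 60.7, 62.3 and 37.9 CPM in KD. Here KD 1 and KD 2 exceeded every Ctrl library, whereas the library labelled D2 KD 3 lay within the Ctrl range. The D2 log2 fold change was 0.40 ± 0.22 (adjusted p = 1), and 0.59 without that library (adjusted p = 0.522). It fell to 0.27 without D2 KD 2.

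Irf9 (ENSMUSG00000002325, chr14:55603571-55610030) supplies the main DNA contact of the complex. It had 20.7, 19.1 and 18.9 CPM in B6 Ctrl, the tightest Ctrl group of the 9 genes relative to its mean (19.6 ± 0.954 CPM, SD, n = 3). In B6 KD it had 68.5, 76.9 and 49.8 CPM, so that the lowest KD library was above the highest Ctrl library. On the log2 scale the change was 1.73 ± 0.32 (edgeR adjusted p = 0.0361). In D2 the levels were 16.04, 13.4 and 26.5 CPM in Ctrl and 44.1, 31.98 and 18.2 CPM in KD. The D2 groups overlapped through Ctrl 3, the highest Ctrl library, and the library labelled KD 3, the lowest KD library. The D2 log2 fold change was 0.75 ± 0.32 (unadjusted p = 0.0379, adjusted p = 1 in edgeR). The locus overlaps Rnf31 on the same strand, whose log2 fold change in B6 was 0.26 ± 0.09 (adjusted p = 0.141).

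Irf7, the inducible member of the family that drives late interferon production, showed the largest fold change of the 9 in B6. Irf7 (ENSMUSG00000025498, chr7:141262706-141266481) had 3.05, 3.33 and 1.91 CPM in B6 Ctrl. It had 71.4, 111.5 and 29.96 CPM in B6 KD, that is 25.8, 40.4 and 10.9 times the Ctrl mean. By edgeR, Irf7 rose by 4.69 ± 0.71 on the log2 scale (adjusted p = 0.0326). In D2, Irf7 had 3.53, 4.25 and 8.74 CPM in Ctrl and 21.9, 28.1 and 4.78 CPM in KD. KD 1 and KD 2 stood at 3.99 and 5.10 times the D2 Ctrl mean and above every Ctrl library, while the library labelled KD 3 was at 0.867 times that mean. The D2 log2 fold change was 1.73 ± 0.64 (unadjusted p = 0.0209, adjusted p = 1 in edgeR), and 2.18 without that library (adjusted p = 0.390). It fell to 1.27 without D2 KD 2. Irf7 overlaps Phrf1 on the opposite strand, whose B6 log2 fold change was -0.10 ± 0.07 (adjusted p = 0.443).

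Usp18, which removes the interferon-induced modifier ISG15 from proteins and blocks the type I receptor, followed Irf7. Usp18 (ENSMUSG00000030107, chr6:121245906-121270917) had 1.32, 2.33 and 1.82 CPM in B6 Ctrl and 40.4, 53.9 and 14.7 CPM in B6 KD. Again every KD library was above every Ctrl library, and KD 3 was the lowest KD library at 8.08 times the Ctrl mean. By edgeR the rise was 4.32 ± 0.79 on the log2 scale (adjusted p = 0.0361). In D2 it had 1.55, 2.26 and 7.44 CPM in Ctrl and 11.9, 19.4 and 3.29 CPM in KD. The D2 groups overlapped through Ctrl 3 and the library labelled KD 3. The D2 log2 fold change was 1.61 ± 0.72 (unadjusted p = 0.0461, adjusted p = 1 in edgeR), and it was 2.62 without D2 Ctrl 3 and 2.05 without the library labelled D2 KD 3 (adjusted p = 0.731 and 0.522). It fell to 1.006 without D2 KD 2.

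Irf8 (ENSMUSG00000041515, chr8:120736358-120756694) had 5.85, 7.03 and 6.30 CPM in B6 Ctrl and 20.9, 23.9 and 13.96 CPM in B6 KD. The groups did not overlap, and the log2 fold change was 1.61 ± 0.35 (edgeR adjusted p = 0.0443). In D2 it had 7.25, 5.38 and 13.3 CPM in Ctrl and 10.4, 12.4 and 5.95 CPM in KD. Both D2 groups spanned much the same range, and the log2 fold change was 0.15 ± 0.34 (adjusted p = 1). Because Irf8 is made by microglia, it was set beside 12 microglial marker genes in the same libraries. Their summed level was 501 to 576 CPM in B6 Ctrl and 727 to 1203 CPM in B6 KD, and 447 to 749 CPM in D2 Ctrl and 463 to 820 CPM in D2 KD. All 12 markers had a positive log2 fold change in B6 with a median of 0.94, but 1 of them, Itgam, passed the test.

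Relative to that sum, Irf8 was also higher in B6 KD. Its CPM amounted to 1.17% ± 0.136 (SD, n = 3) of the summed markers in B6 Ctrl and reached 1.90% ± 0.161 in B6 KD, with no overlap. The ratio of these shares was 1.62, and 1.54 to 1.72 with any 1 of the markers left out. In D2 the share was 1.42% ± 0.308 in Ctrl and 1.501% ± 0.212 in KD, and the libraries overlapped. In bulk tissue more cells of a type and more RNA per cell cannot be told apart, and the part of cell numbers in the other regulators was not tested.

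**Figure D2:**
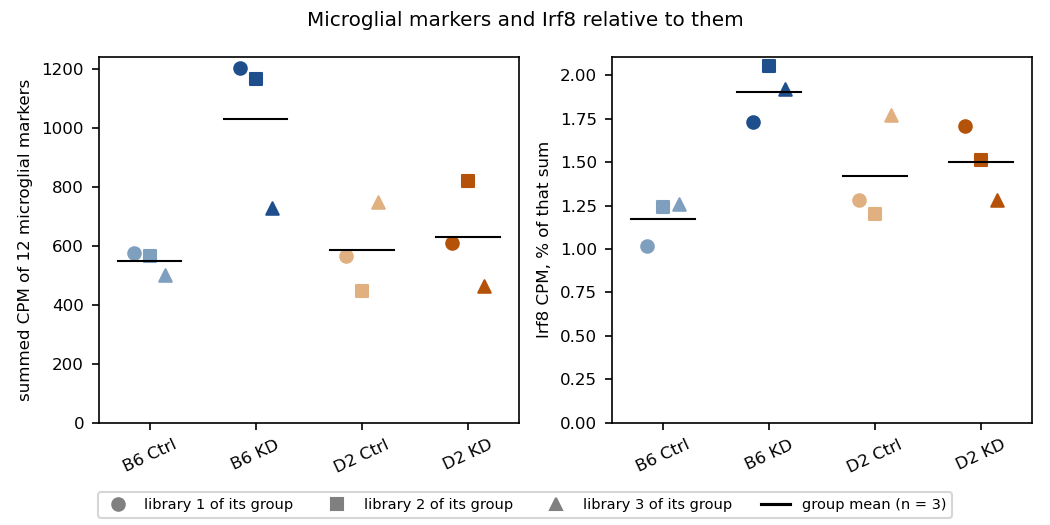
Left, summed CPM of 12 microglial markers per library. Right, CPM of Irf8 as a percentage of that sum. Symbols mark libraries and lines group means (n = 3). In both panels the 3 B6 KD libraries lie above the 3 B6 Ctrl libraries, and the D2 groups overlap.

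Irf1 and both SOCS inhibitors were higher in every B6 KD library than in any B6 Ctrl library but did not pass the test. Irf1 (ENSMUSG00000018899, chr11:53770014-53778374), a factor that activates antiviral and antigen presentation genes, had 9.14, 13.9 and 8.27 CPM in B6 Ctrl and 19.0, 20.4 and 18.2 CPM in B6 KD. The KD libraries were close together, and the spread lay mostly in Ctrl. Its estimate of 0.88 ± 0.23 on the log2 scale missed the threshold (edgeR adjusted p = 0.0646). In D2 it had 10.4, 7.58 and 13.5 CPM in Ctrl and 11.1, 13.5 and 10.1 CPM in KD, with overlapping groups and a log2 fold change of 0.13 ± 0.23 (adjusted p = 1).

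Socs1 and Socs3 encode inhibitors of Janus kinases and of cytokine receptors. Socs1 (ENSMUSG00000038037, chr16:10782240-10785536) rested on few counts, from 9 to 70 per library. It had 0.405, 0.765 and 0.463 CPM in B6 Ctrl and 0.965, 1.97 and 1.76 CPM in B6 KD, an estimate of 1.53 ± 0.38 on the log2 scale (edgeR adjusted p = 0.0567). Its D2 levels were 0.588, 0.509 and 1.00 CPM in Ctrl and 1.22, 1.05 and 0.854 CPM in KD. The D2 libraries overlapped only through Ctrl 3 and the library labelled KD 3, and the log2 fold change was 0.56 ± 0.38 (adjusted p = 1).

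Socs3 (ENSMUSG00000053113, chr11:117966079-117970047) differed from the other regulators in which library was high. It had 2.37, 3.06 and 1.91 CPM in B6 Ctrl and 3.69, 10.3 and 54.2 CPM in B6 KD. B6 KD 3, the lowest KD library for 6 of the 9 genes, was the highest for Socs3, at 22.2 times the Ctrl mean. The log2 fold change of 3.22 ± 0.83 (edgeR adjusted p = 0.0614) therefore rests largely on 1 library, and it was 1.48 without B6 KD 3. In D2, Socs3 had 2.88, 2.15 and 6.22 CPM in Ctrl and 3.56, 5.55 and 3.19 CPM in KD, with a log2 fold change of 0.12 ± 0.78 (adjusted p = 1).

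Irf3, the sensor factor that is present before any stimulus and is activated by phosphorylation, was the exception. Irf3 (ENSMUSG00000003184, chr7:44997648-45002848) had 22.8, 21.6 and 18.8 CPM in B6 Ctrl and 19.7, 21.1 and 20.2 CPM in B6 KD. The KD libraries lay inside the Ctrl range. With an estimate of -0.05 ± 0.10, Irf3 was not called (edgeR adjusted p = 0.810). In D2 it had 13.8, 15.7 and 16.4 CPM in Ctrl and 13.3, 13.8 and 13.6 CPM in KD, where the log2 fold change was -0.17 ± 0.10 (adjusted p = 1).

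**Figure D3:**
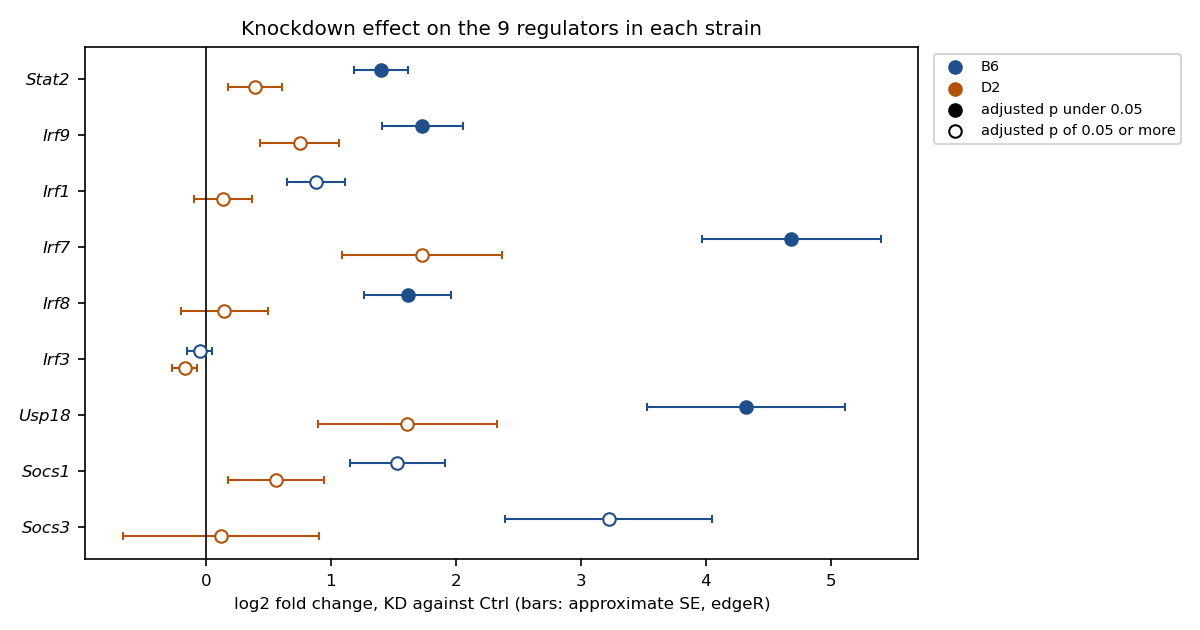
log2 fold change of each regulator, KD against Ctrl, in B6 and D2 from the edgeR fit, with bars of 1 approximate SE. Filled points have an adjusted p under 0.05, which 5 of the 9 reached in B6 and none in D2. The B6 estimate exceeds the D2 estimate for every gene.

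The number of regulators called in B6 depended on the test and on single mice, while the direction did not. DESeq2 called 8, all but Irf3, among 1668 genes of the whole table, where edgeR called 418. limma-voom called 5, Stat2, Irf1, Irf7, Irf8 and Irf9, among 368 genes. With the library total or the choroid plexus score as a covariate edgeR called 0 genes of any kind in B6, at 3068 and 2857 genes with an unadjusted p under 0.05. The smallest adjusted p of the 9 genes was then 0.0575 and 0.0580. With the choroid plexus score the log2 fold change was 4.76 for Irf7 and 1.47 for Stat2, but it was lower for Socs3 (2.80 in place of 3.22) and Socs1 (1.29 in place of 1.53). Over all tests with all libraries it ran from 4.53 to 4.76 for Irf7, 1.37 to 1.47 for Stat2, 1.29 to 1.54 for Socs1 and 2.51 to 3.25 for Socs3. With 1 library left out, edgeR called 0 of the 9 genes without B6 Ctrl 1, B6 Ctrl 3, B6 KD 1, B6 KD 2 or D2 Ctrl 1, 2 without D2 Ctrl 2, and 3 without B6 Ctrl 2 or D2 KD 1. It called 5 without B6 KD 3, D2 KD 2 or the library labelled D2 KD 3, and 7 without D2 Ctrl 3. The calls over the whole table moved alike, with 0 genes of any kind in each of the 5 fits without a called regulator, 45 without D2 Ctrl 2, 124 to 237 where 3 regulators were called, 478 to 790 where 5 were, and 593 without D2 Ctrl 3. The smallest adjusted p among the fits with 0 calls was 0.0517, and the 8 genes other than Irf3 had an unadjusted p under 0.05 in each of the 12 fits.

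In D2 no regulator passed the test with all libraries, and no gene of the whole table did. By edgeR 452 genes had an unadjusted p under 0.05, among them Irf7, Irf9 and Usp18. DESeq2 called 1 gene, none of the 9, and limma-voom 0, with 383 genes at an unadjusted p under 0.05 and none of the 9 among them. Without the library labelled D2 KD 3 edgeR called 1 gene, none of the 9, and 1236 genes had an unadjusted p under 0.05, Irf7, Irf9, Stat2 and Usp18 among them. Without D2 Ctrl 2, D2 KD 1 or D2 KD 2, 0 of the 9 had an unadjusted p under 0.05. Without D2 Ctrl 1 only Irf3 had, at a log2 fold change of -0.25, and without D2 Ctrl 3 Irf7, Irf9 and Usp18 had. The log2 fold change was positive for 8 of the 9, with a median of 0.40, and the KD and Ctrl libraries overlapped for all 9, where 2.93% of all genes did not overlap and were higher in KD and 3.03% did not overlap and were lower. Single libraries moved the estimates both ways. With 1 library left out they ran from 1.27 to 2.24 for Irf7, 1.006 to 2.62 for Usp18 and 0.27 to 0.59 for Stat2, each lowest without D2 KD 2, and from 0.41 without D2 KD 1 to 1.09 for Irf9. For Socs1 they ran from 0.40 to 0.91. Without the library labelled D2 KD 3 the log2 fold change was 1.02 for Irf9, 0.40 for Irf8, 0.22 for Irf1, 0.68 for Socs1, 0.27 for Socs3 and -0.17 for Irf3, and the median over the 9 was 0.59. None of the 9 was called in D2 in any of these fits.

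Averaged over the strains, none of the 9 passed the edgeR test used above. Each averaged estimate is by construction the mean of those of B6 and D2. The log2 fold change was 3.21 ± 0.47 for Irf7, 2.97 ± 0.53 for Usp18, 1.24 ± 0.22 for Irf9 and 0.90 ± 0.15 for Stat2, all at an adjusted p of 0.0540. No gene of the table was called, although 3046 genes had an unadjusted p under 0.05, 8 of the 9 regulators among them. DESeq2 called 1217 genes, with the same 8 regulators, and limma-voom called 0, with 2994 genes at an unadjusted p under 0.05. Without the library labelled D2 KD 3 edgeR called Stat2, Irf7, Irf8, Irf9 and Usp18, among 799 genes of the table, and without D2 Ctrl 3 the same 5 among 326 genes. Without B6 KD 3 it called Stat2, Irf7, Irf9 and Usp18, among 400 genes.

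The difference between the strains in the KD effect was tested directly. All 9 interaction estimates, the D2 effect minus the B6 effect, were negative, from -3.10 ± 1.12 for Socs3 and -2.96 ± 0.91 for Irf7 to -0.12 ± 0.14 for Irf3. For 7 of the 9 the unadjusted p was under 0.05, but the smallest adjusted p was 0.821 in edgeR. No gene of the table was called by edgeR, with 937 genes at an unadjusted p under 0.05, and limma-voom called 0. DESeq2 called 12 genes, none of the 9, with 0.285 as its smallest adjusted p among them. A larger effect in B6 was therefore not established for any of the 9.

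Setting the 4 groups in order, the mean level was highest in B6 KD and next highest in D2 KD for 8 of the 9 genes. For Stat2, Irf1, Irf3, Irf7, Irf8 and Irf9 every D2 KD library lay below every B6 KD library, as 15.7% of all genes did, while for Socs1, Socs3 and Usp18 these groups overlapped. For these 8 both Ctrl means were the lowest, while for Irf3 the mean was highest in B6 Ctrl and lowest in D2 KD. Irf7 averaged 5.51 ± 2.82 CPM in D2 Ctrl and 2.76 ± 0.751 CPM in B6 Ctrl (SD, n = 3 each), and its libraries did not overlap, but the log2 difference of 1.00 ± 0.67 did not pass the test (edgeR adjusted p = 0.434) and was 0.49 without D2 Ctrl 3. Usp18 averaged 3.75 ± 3.22 CPM in D2 Ctrl and 1.83 ± 0.505 CPM in B6 Ctrl, with overlapping libraries and a log2 difference of 1.06 ± 0.75 (adjusted p = 0.477), which was 0.0499 without D2 Ctrl 3.

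The strains differed at baseline in 1 regulator. Irf3 was lower in D2 Ctrl than in B6 Ctrl by a log2 difference of -0.46 ± 0.10 (edgeR adjusted p = 0.00780), or 0.725 times the B6 level, with no overlap of libraries. Of all genes, 8.75% were called lower in D2 Ctrl and 5.23% higher, 14% in all, and 17.9% had lower libraries without overlap, so a strain difference was common in the table. The call held in all 10 other tests with all libraries and in all 12 fits with 1 library left out. The KD libraries showed the same order, with 19.7 to 21.1 CPM in B6 and 13.3 to 13.8 CPM in D2. The authors used a separate genome for either strain when aligning reads, and the part of this step in the difference was not tested. Irf3 shares its locus with Bcl2l12 on the opposite strand, which had at most 61.7 counts in a library and a log2 difference of -0.35 ± 0.23 (adjusted p = 0.418). The loci of Irf1, Irf8 and Usp18 also overlap Gm17334, Gm20388 and Gm44148, which were not analysed here. Where the overlapping gene lies on the opposite strand, reads of both cannot be told apart unless counting used strand.

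Single libraries were high or low for many of the regulators together. B6 KD 2 was the highest of its group for 8 of the 9 genes, all but Socs3, and for 27.4% of all genes. B6 KD 3 was the lowest for 6 of the 9 and for 42.6% of all genes. D2 Ctrl 3 was the highest of its group for all 9 and for 43.6% of all genes, and the library labelled D2 KD 3 was the lowest for 8 of the 9, all but Irf3, and for 35.7% of all genes. For each of the 8 genes other than Irf3 the overlap of the D2 groups involved D2 Ctrl 3, the library labelled D2 KD 3 or both. D2 Ctrl 3 reached 1.98 times the D2 Ctrl mean for Usp18 and 1.59 times for Irf7.

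**Figure D4:**
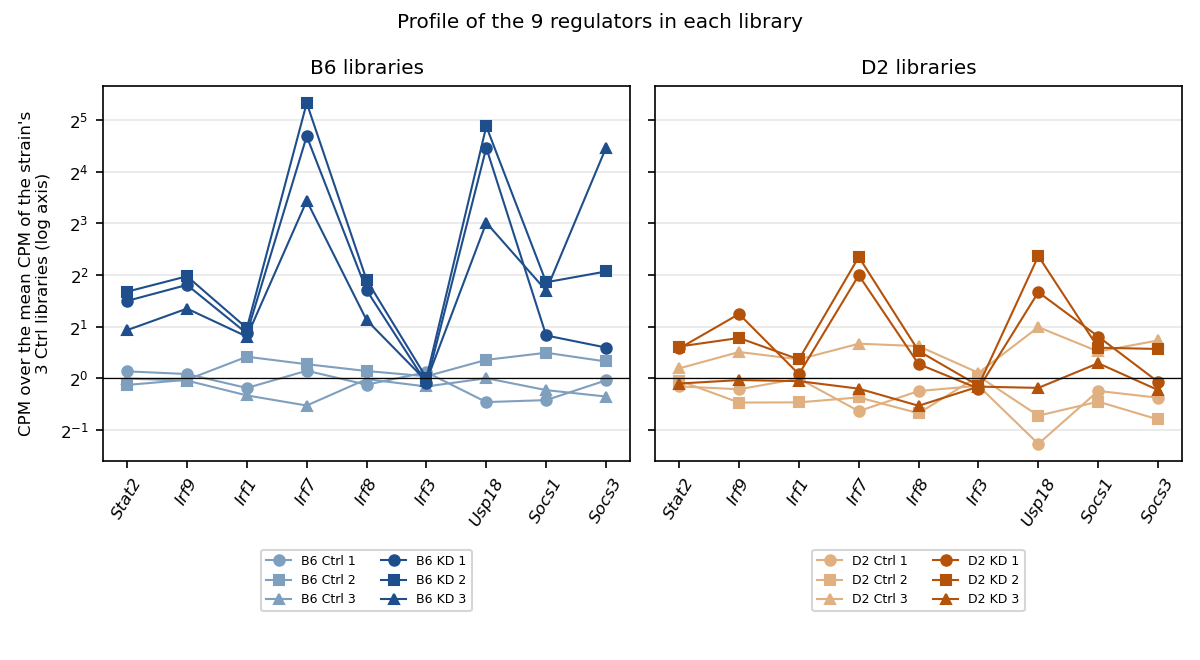
CPM of each regulator over the mean of the 3 Ctrl libraries of its strain, on a log axis, with 1 line per library. The 3 B6 KD profiles peak at Irf7 and Usp18, and B6 KD 3 peaks again at Socs3 with 22.2. In D2 the profiles of KD 1 and KD 2 peak at the same genes, and that of the library labelled KD 3 stays near the Ctrl mean, between 0.689 and 1.22.

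Over all libraries the regulators other than Irf3 varied together, with correlations of 0.52 to 0.99 between pairs, but within groups fewer did. Over the 12 libraries the Pearson correlation of log2(CPM + 1) had a median of 0.82 over the 36 pairs of genes, and 0.41 after removal of the 4 group means. The closest pair was Irf7 and Usp18, with 0.99 over all libraries and 0.95 within groups. Irf3 reached at most 0.36 with any other regulator. Within groups the pairs among Stat2, Irf7, Irf8, Irf9 and Usp18 had 0.79 to 0.95. With these 5 genes Irf1 had 0.28 to 0.74, Socs1 had 0.16 to 0.48 and Socs3 had -0.35 to -0.0256, and Socs3 was closest to Socs1 with 0.64. All points come from the same 12 libraries, so these values are a description.

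The genes most like each regulator were sought among 14180 genes with a mean of at least 1 CPM. Irf7 was closest to Isg15, Ifit1 and Parp9, and Usp18 to Ddx58, Oas1a and Ifit1, with 0.99 in each case. Phf11d and Irf7 were among the nearest genes of Stat2 (0.99 each), and Gbp3 and Oas1b among those of Irf9 (0.97 each). Irf8 stood nearest to Rab32, Sp110 and Cd53 (0.98 each), and Irf1 to Srgn, Cmtm7 and Olfml3 (0.96 to 0.98). Socs3 was closest to Ptx3, Sbno2 and Has2 (0.97 to 0.98), and Socs1 to Ltbr, Hdc and Il13ra1 (0.94 to 0.95). Irf3 was closest to Scnm1, Rgl2 and Gm14169 (0.97 each).

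Other genes of the pathway were read from lists by role. None of 10 interferon ligands, type I, II and III, was tested, since none had more than 2 counts in any library. Of 6 interferon receptor subunits 0 were called in B6, with a median log2 fold change of 0.53. None of 4 other IRFs and none of 13 other SOCS proteins and STAT inhibitors was called, with medians of 0.29 and -0.05. Of 10 kinases and adaptors upstream of Irf3 and Irf7, 1 was called, Myd88, an adaptor of Toll-like receptors, at 0.96 ± 0.20 (adjusted p = 0.0410).

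The targets of the pathway were higher as well. The median log2 fold change in B6 was 3.31 over 20 interferon-stimulated targets and 0.0025 over all genes. All 20 had a positive estimate in B6, and 17 were called higher, against 1.76% of all genes. The largest were the antiviral GTPase gene Mx1 (4.39 ± 0.97), the ubiquitin-like modifier gene Isg15 (4.37 ± 0.69), the RNA-binding Ifit1 (4.34 ± 0.66) and Oasl2 of the oligoadenylate synthetase family (4.33 ± 0.81). Ifit2, Cxcl10 and Psmb9 did not pass. In D2 all 20 had a positive estimate with a median of 1.11, and edgeR called 0 of them. That median became 1.51 with the library labelled D2 KD 3 left out, again with 0 called, and 0.62 with D2 KD 2 left out. The list was drawn up with results of these data known, so its count is not independent of the regulators.

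**Figure D5:**
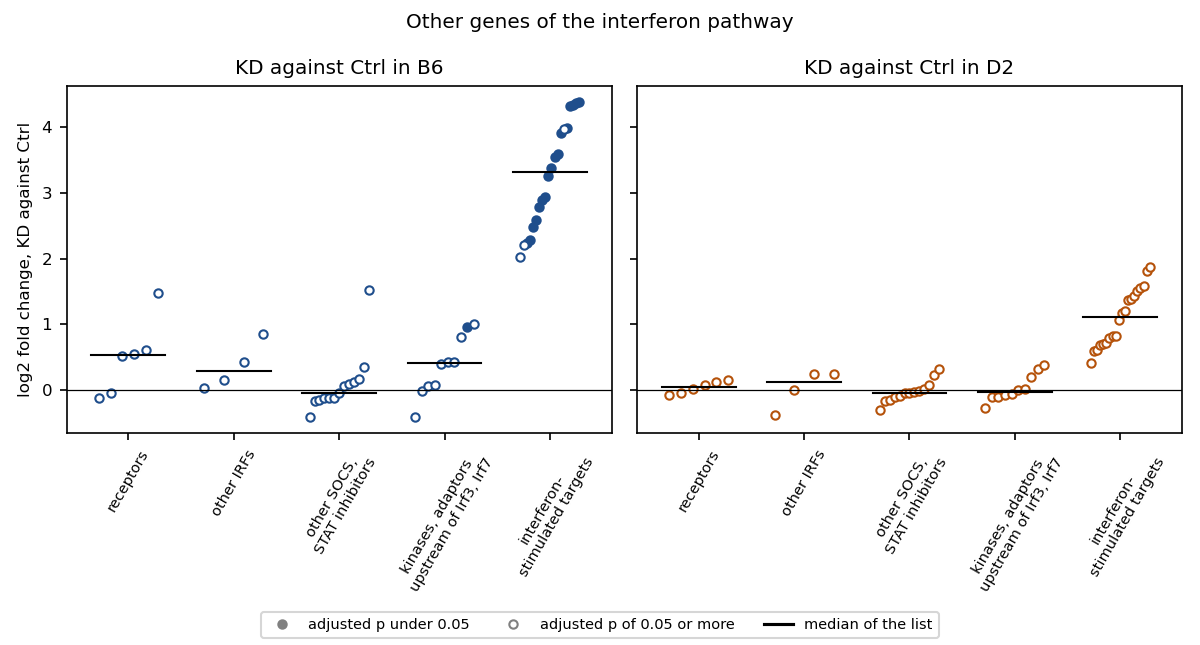
log2 fold change, KD against Ctrl, of other pathway genes grouped by role, in B6 (left) and D2 (right). Each point is 1 gene, filled where the adjusted p was under 0.05, and lines are list medians. Filled points stand almost wholly among the interferon-stimulated targets in B6, 17 of 20, and no point is filled in D2.

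Markers of other cells that could bring such transcripts were also read. The summed level of 12 lymphocyte markers was 1.204 to 2.10 CPM in B6 Ctrl and 2.89 to 11.02 CPM in B6 KD, with 3 of the 12 tested and 0 called. In D2 the sum was 0.850 to 2.08 CPM in Ctrl and 1.013 to 1.73 CPM in KD. Cd3e, which defines T cells, had at most 3 counts in every library of all groups but B6 KD. For 7 blood monocyte and neutrophil markers the sum was 0.438 to 3.63 CPM in B6 Ctrl and 2.73 to 17.7 CPM in B6 KD, and 1 of 5 tested was called in B6, Plac8. These B6 groups overlapped. In D2 the sum was 1.014 to 1.75 CPM in Ctrl and 1.96 to 5.54 CPM in KD, without overlap, and 0 were called. All 5 tested had a positive estimate in both strains, their medians being 2.73 on the log2 scale in B6 and 1.95 in D2. The D2 median became 2.39 with the library labelled KD 3 left out and 0.0596 with KD 2 left out. Of the 7 markers Retnlg had at most 3 counts in every library of all groups but D2 KD, and F10 in every Ctrl library. All 8 choroid plexus markers had a positive estimate in B6 (median log2 fold change 1.74, none called), from libraries that ranged from 148 to 5126 CPM in KD. Of 8 astrocyte markers 1 was called, Aqp4, and of 8 endothelial, 8 oligodendrocyte, 8 neuronal and 8 hippocampal neuron markers 0 were called in B6. The astrocyte markers went both ways in B6, with 5 of 8 estimates positive (median 0.11, from -0.38 to 1.70). The neuronal sum was 9381 to 10304 CPM in B6 Ctrl and 7585 to 9212 CPM in B6 KD, without overlap, while the D2 groups overlapped. In B6, 3 of 8 neuronal markers had a positive estimate (median -0.17), and all 8 hippocampal neuron markers had a negative one (median -0.19). Of the 8 endothelial markers 7 had a positive estimate in B6 (median 0.40). The part of these cells in the levels of the regulators was not tested.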

How the data were processed

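The labels of strain and treatment set the groups. Per the labels and methods, the authors trimmed and filtered paired reads, used a B6 or a D2 genome for alignment according to the mouse (GRCm38/mm10 is named in the processing notes), and estimated expected counts per gene with RSEM 1.2.12 and Bowtie2 2.2.0. Runs were joined for 10 of 12 samples, which ones is not given, and neither the annotation release nor the use of strand in counting is given in the sources used here. The deposited expected counts are not normalized. The authors' table of normalized counts was not used here.

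Expected counts were rounded, genes with low counts removed with filterByExpr over the 4 groups, and 15853 of 22236 genes tested in edgeR 4.0.16 by its quasi-likelihood F-test (R 4.3.3, TMM, robust estimation, 1 mean per group, 12 libraries in 1 fit). Benjamini-Hochberg adjustment ran over all genes tested, and an adjusted p under 0.05 was called. Standard errors are the log2 fold change over the square root of F and approximate. The labels name separate mice. With 3 mice per group, the spread between mice, not depth, sets the precision, and counting error matters for Socs1. Alternatives were DESeq2 1.42.0 (the study's tool), limma-voom (limma 3.58.1), other edgeR settings and each library left out in turn.

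Named genes were the 9 regulators, Hp1bp3, up to 4 called genes per pathway list by size, and the 3 most alike genes per regulator. Itgam, Plac8 and Aqp4, the called cell type markers, the near-absent markers Cd3e, Retnlg and F10, the targets Ifit2, Cxcl10 and Psmb9 that were not called, and the genes that overlap a regulator were named after their values were seen. One pathway list and some of the most alike genes are not reported here. The members and lists were chosen with earlier results of these data known. Loci are from GENCODE M21, promoters from RefSeq.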

Additional observations from a re-analysis of the deposited data

How the results depend on the processing

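Of 972 alternative values for the single regulators over the 5 comparisons, 883 kept their direction and side of the threshold, 31 passed it newly, 44 no longer passed and 14 changed sign. Most of these values belong to comparisons in which the gene was not called, so no call could be lost there. All 44 losses fell on the 5 regulators called in B6. With 1 library left out, Stat2 and Irf7 were called in B6 in 7 of 12 fits, Irf9 in 5, and Irf8 and Usp18 in 4. In B6 the count of regulators called, 5, became 8 with DESeq2, 0 with the library total or the choroid plexus score as a covariate, and 0 to 7 with 1 library left out. Over the whole table the calls went in the same settings from 418 to 1668, 0 and 0 to 790. Averaged over strains the count of 0 became 8 with DESeq2, 1 with the newer quasi-likelihood method, and 0 to 5 with 1 library left out, and over the whole table from 0 to 1217, 15 and 0 to 799. The 22 genes of the pathway and cell type lists called in B6 became 51 with DESeq2, 0 with either covariate and 0 to 33 with 1 library left out. Hp1bp3 averaged over strains (-0.39) passed with DESeq2 at -0.41 (adjusted p = 0.0103) and ran from -0.51 to -0.35 with 1 library left out. It passed without B6 KD 3 (-0.51) and without the library labelled D2 KD 3 (-0.48). Socs3 in D2 changed sign to -0.34 with the library total as a covariate, and Irf1 between the strains in Ctrl to -0.0018 with the choroid score. With 1 library left out the D2 log2 fold change ran from -0.0498 to 0.35 for Irf1, -0.0936 to 0.60 for Irf8 and -0.16 to 0.70 for Socs3. The D2 minus B6 difference in Ctrl ran from -0.20 to 0.27 for Irf1, -0.0101 to 0.68 for Irf8 and -0.41 to 0.12 for Irf9. None of these was called in any setting, and the causes were not tested. No paired analysis was possible because the labels give no replicate numbers and those used here follow the order of deposit.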

Other observations

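In both strains the KD library with the most Hp1bp3 left tended to show the lowest levels of the regulators, a pattern noticed after the values were seen. Hp1bp3 was lowest in KD 2, next in KD 1 and highest in KD 3 in B6 (182, 185 and 259 CPM) and also in D2 (163, 177 and 229.5 CPM). Stat2, Irf1, Irf7, Irf8 and Usp18, 5 of the 9 regulators, had exactly the reverse order in both strains, as did 5.14% of all genes tested. Irf7, for example, had 111.5, 71.4 and 29.96 CPM in B6 and 28.1, 21.9 and 4.78 CPM in D2 when the libraries were taken in that order. In B6 alone 6 of the 9 had the reverse order, against 18.4% of all genes, and in D2 alone 6 of the 9, against 20.8%. The Hp1bp3 levels of KD 1 and KD 2 differed little in each strain, so the order rests mostly on KD 3. Socs3 was highest in B6 KD 3. The orders above cover the KD groups only. In D2 Ctrl the library with the most Hp1bp3, Ctrl 3 (234 CPM), was the highest for all 9. In B6 Ctrl the library with the most, Ctrl 3 (310 CPM), was the lowest for 5 of the 9. Stat2, Irf7, Irf8 and Usp18 varied together within groups (correlations of 0.79 to 0.95), so they do not count separately. With 3 libraries per group this is a description of these mice, and a dependence on the Hp1bp3 level was not tested.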
